A study of Homo sapiens with 2 samples.

Results

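The 54 genes described here encode the ligands, latency proteins, antagonists, receptors, SMAD transducers and common target genes of TGF-beta and BMP signalling. They were chosen by symbol from a list written with earlier results of these data known. All 54 were found among the 57820 genes listed for each library. RNA-seq with a stranded mRNA kit was carried out on 2 lines from human liver tumours, HepG2, labelled as hepatocellular carcinoma, and SKHEP1, labelled as endothelial cells. Both were of WT genotype, both were grown in DMEM with fetal bovine serum, and the labels name no treatment. The stated purpose of the profiling was to examine the long noncoding RNA PURPL and its transcript variants, not this pathway. Each line was sequenced once, so no difference could be set against replicate spread, and no test was made. Intervals at 95% cover counting error only, and even for that they may be too narrow, since amplified reads lacking molecular identifiers cannot be counted as separate molecules. A bulk library also does not tell apart fewer expressing cells and less RNA per cell.

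Ligands of this family bind pairs of type I and type II receptor kinases at the cell surface. TGF-beta and activin receptors phosphorylate SMAD2 and SMAD3, whereas BMP receptors phosphorylate SMAD1, SMAD5 and SMAD9, and both sets join SMAD4 to enter the nucleus. Secreted antagonists trap the ligands, and the inhibitory SMADs close the feedback loop. In the liver, TGF-beta is known for its part in fibrosis and in the growth arrest of hepatocytes, and BMP signalling for the control of hepcidin, the hormone of iron balance.

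The SKHEP1 library held 19940557 expected counts, the estimated reads per gene given by RSEM, and the HepG2 library 22477757. Of the 54 genes, 39 reached 10 expected counts in SKHEP1 and 40 in HepG2. The floor of detection was set at 3 counts, or 0.148 CPM (counts-per-million) for SKHEP1 and 0.135 for HepG2. A fold given as at least is the ratio against this floor, and the lower end of its counting interval is lower. With 1 or 2 counts in the lower line the ratio printed uses the raw counts. Such a ratio cannot be ranked against a fold taken against the floor. The cell type labels were compared with marker lists. Of 9 endothelial markers 2 reached 10 counts in SKHEP1 and 3 in HepG2, with KDR, ERG, CLDN5 and EMCN at 0 in both. Their summed level was 1.78 CPM in SKHEP1 and 8.16 CPM in HepG2, where ESAM alone made up 79.6% of it. The low counts of these markers in SKHEP1 go against its endothelial label. ENG (endoglin), which is outside this list, had 1926 counts in SKHEP1 against 18 in HepG2. Of 9 hepatocyte markers all reached 10 counts in HepG2 and 1 did in SKHEP1. Of 10 mesenchymal markers 7 reached it in SKHEP1 and 3 in HepG2. The part of these cell type differences in the values of the pathway was not tested.

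Most receptors and SMADs of the pathway, like most of all genes compared, were within 4-fold between the 2 lines. Most of its ligands, antagonists and targets were further apart. Of the 54 genes, 48 had at least 10 expected counts in either library and were compared as a ratio of TMM-scaled CPM. At least 4-fold higher levels were found for 11 in SKHEP1 and 16 in HepG2, and 21 lay within 4-fold. Among all 15436 genes compared, 16.5% passed 4-fold toward SKHEP1 and 13.0% toward HepG2, or 29.5% in either direction, and 70.5% lay within it. Of the 48, 22.9% were higher in SKHEP1 and 33.3% in HepG2, or 56.3% in either direction. Since the set was chosen with earlier results of these data known, these shares describe the set only. The median log2 ratio of HepG2 over SKHEP1 was 0.42 for the 48 genes and -0.03 for all genes compared. The median size of the log2 ratio, whatever its sign, was 2.40 and 0.95. The genes apart by at least 4-fold were unevenly spread over the roles. They made up 2 of 11 receptors and 1 of 6 transducing SMADs, but 6 of 6 compared activin, inhibin and nodal genes and 5 of 5 secreted antagonists. The 6 genes not compared stayed under 10 counts in both libraries.

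**Figure D1:**
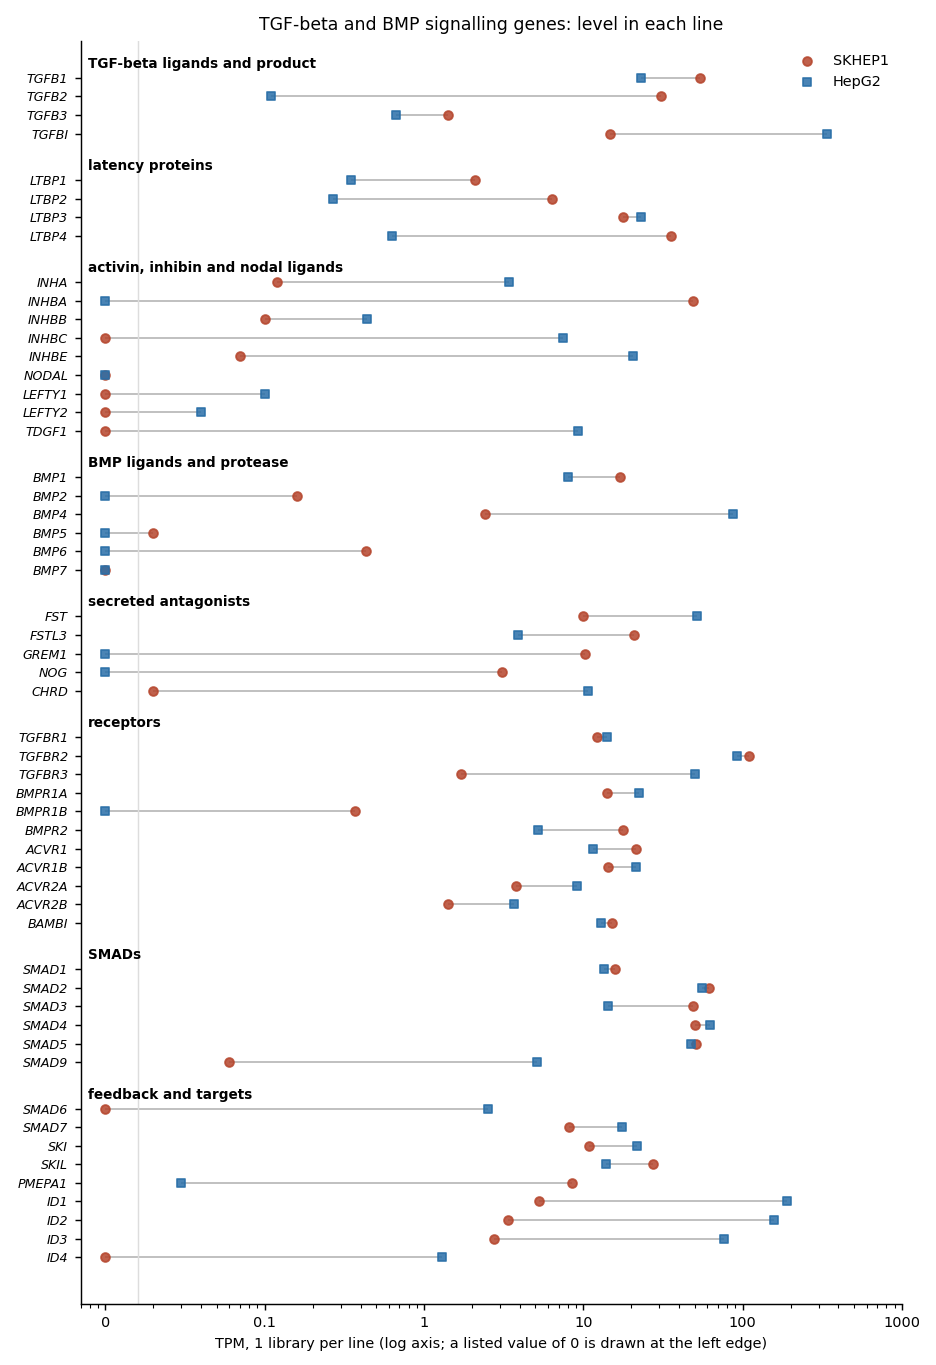
Level of each of the 54 genes in transcripts-per-million (TPM, log axis) in SKHEP1 (circles) and HepG2 (squares), 1 library per line, ordered by role, with a listed value of 0 drawn at the left edge. The paired points lie close together for most receptors and SMADs, such as TGFBR2 at 109.5 and 92.3 TPM, and far apart for INHBA, BMP4 and the ID genes.

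The summed level of the TGF-beta ligand genes was higher in SKHEP1, and the share of TGFB2 in it differed between the lines. TGFB1, the most widely expressed of the ligand genes, had 1604 expected counts in SKHEP1 and 737 in HepG2, a 2.39-fold higher level in SKHEP1 (counting interval 2.19 to 2.61), which is within the 4-fold limit. TGFB2 had 1618 and 2 counts, a ratio of 888 from the raw counts (245.5 to 7340.5). With the 2 counts raised to the floor of 3 it was 592-fold higher in SKHEP1, a log2 ratio of -9.21. From the deposited TPM values, with the same floor of 3 counts, its log2 ratio was -7.61. TGFB3 was low in both, with 25 and 19 counts, and its 1.44-fold difference was within counting error (0.76 to 2.77). TPM values, which are scaled per length and can be compared between genes, summed to 85.9 for the 3 ligand genes in SKHEP1 and 23.7 in HepG2. TGFB1 made up the largest part of that sum in both lines, 62.5% in SKHEP1 and 96.7% in HepG2. TGFB2 made up 35.9% of it in SKHEP1 and 0.46% in HepG2. TGFBI, a secreted matrix protein named for its induction by TGF-beta, went the other way. It had 372 counts in SKHEP1 against 9982 in HepG2, a 24.4-fold difference (22.0 to 27.2), and at 341 TPM was the most abundant of the 54 genes in HepG2. TGFB1 overlaps exons of HNRNPUL1 on the opposite strand by up to 118 bases in GENCODE release 29, so part of its counts may belong to that gene.

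Latent TGF-beta binding proteins, which tether the inactive cytokine or its fibrillin scaffold to the matrix, were mostly higher in SKHEP1. LTBP4 had 553 counts in SKHEP1 against 3 in HepG2, a ratio of 202 (68.9 to 984.4). LTBP2 had 668 and 29 counts and was 25.3-fold higher in SKHEP1 (17.4 to 38.1). LTBP1 had 140 and 11 counts and was 14.0-fold higher (7.57 to 28.6). From the deposited TPM values the log2 ratios of LTBP4 and LTBP1 were smaller, at -5.83 against -7.66 and -2.58 against -3.80, still past 4-fold. LTBP3 was expressed in both lines, with 392 counts in SKHEP1 against 691 in HepG2, and was 1.61-fold higher in HepG2 (1.42 to 1.82). On the TPM scale LTBP3 made up 94.8% of the latency protein sum in HepG2, and LTBP4 57.7% of it in SKHEP1.

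The lines expressed different subunits of activin and inhibin. INHBA, the subunit of activin A, had 3048 counts in SKHEP1 against 0 in HepG2. Against the floor of 3 counts it was 1115-fold higher in SKHEP1, with a counting interval that reaches down to 907. It was at 49.1 TPM and made up 99.4% of the summed TPM of the 5 subunit genes there. HepG2 had the subunits best known from hepatocytes, INHBE and INHBC. INHBE had 658 counts in HepG2 against 2 in SKHEP1, a ratio of 300 (82.6 to 2479.6), and INHBC had 194 and 0, at least 58.9-fold higher in HepG2. These genes are neighbours on chromosome 12 in the RefSeq annotation of GRCh38.p14, with no coding gene between them. INHA, the inhibin alpha subunit, had 63 counts in HepG2 against 2 in SKHEP1, a ratio of 28.7 (7.62 to 242). INHBB was close to the limit, with 19 counts in HepG2 and 4 in SKHEP1, giving a ratio of 4.33 whose interval reaches down to 1.44. The summed TPM of the 5 genes was 49.4 in SKHEP1 and 31.9 in HepG2, so that the totals were closer than any single gene was.

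Nodal and its inhibitors were not detectable above the floor in either line. NODAL was at 0 counts in both libraries, LEFTY2 at 0 in SKHEP1 and 1 in HepG2, and LEFTY1 at 0 and 2. TDGF1, also called Cripto, a cell-surface co-receptor for Nodal, had 114 counts in HepG2 against 0 in SKHEP1, at least 34.6-fold higher in HepG2. Its deposited count was fractional, 113.76, with 1.24 counts given to its pseudogene TDGF1P3, and how many reads aligned to both was not analysed here. TDGF1 also overlaps exons of LRRC2 on the opposite strand by up to 110 bases, and LRRC2 had 12 counts in SKHEP1 and 24 in HepG2.

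BMP4 was the only BMP ligand of the list above 1 TPM in either line, and it was higher in HepG2. It had 42 counts in SKHEP1 against 1855 in HepG2, or 2.43 and 86.6 TPM, a 40.2-fold difference (29.6 to 56.0). BMP6, which in the liver drives hepcidin from endothelial cells, had 14 counts in SKHEP1 against 0 in HepG2 and was at least 5.12-fold higher in SKHEP1, although the counting interval reaches down to 3.64. BMP2, BMP5 and BMP7 had 7, 1 and 0 counts in SKHEP1 against 0 in HepG2. The summed TPM of the 5 ligand genes was 3.04 in SKHEP1 and 86.6 in HepG2. BMP1, a procollagen protease that shares only the name, had 662 and 309 counts and was 2.35-fold higher in SKHEP1 (2.05 to 2.70).

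The 5 secreted antagonists were all past 4-fold, beside 29.5% of all genes compared, and split between the lines by gene. The value of CHRD, counted among them, is uncertain. GREM1, or gremlin, an inhibitor of BMP ligands, had 504 counts in SKHEP1 against 0 in HepG2 and was at least 184-fold higher in SKHEP1. NOG, or noggin, had 67 and 0 counts, at least 24.5-fold higher in SKHEP1. CHRD, or chordin, another inhibitor of BMP ligands, had 1 count in SKHEP1 against 337 in HepG2, a ratio of 307 (54.7 to 12159). CHRD overlaps exons of THPO, the thrombopoietin gene, on the opposite strand by up to 254 bases, and THPO had 0 and 277 counts. Since the strand setting of the counting is not given in the sources used here, reads in the overlap cannot be told apart, which makes the value of CHRD uncertain. The follistatins, which bind activins, also went opposite ways. FST had 242 counts in SKHEP1 against 1344 in HepG2, 5.06-fold higher in HepG2 (4.41 to 5.82), and FSTL3 had 610 and 123, 5.44-fold higher in SKHEP1 (4.48 to 6.66).

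**Figure D2:**
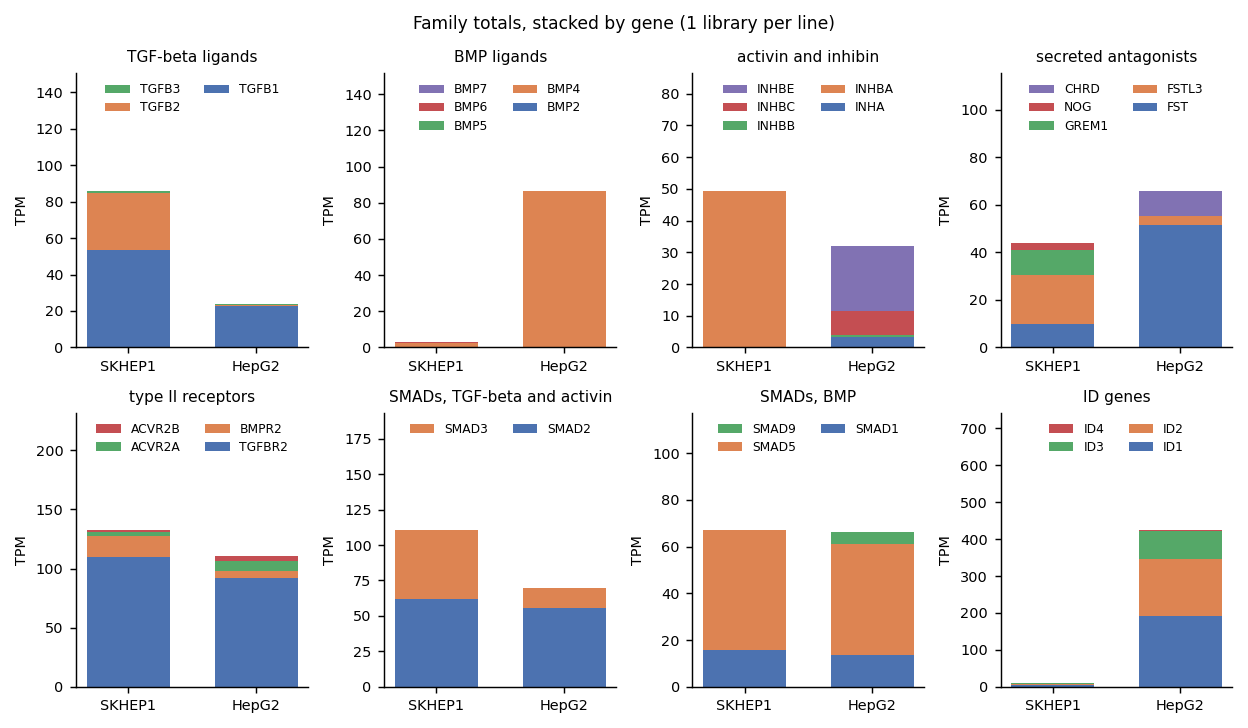
Summed TPM of 8 gene families in SKHEP1 and HepG2, 1 library per line, with each bar stacked by gene and a separate axis from 0 in each panel. The TGF-beta ligand sum is 85.9 in SKHEP1 and 23.7 in HepG2, the BMP ligand sum 3.04 and 86.6, and the ID gene sum 11.4 and 424.6, while the BMP-branch SMADs sum to 67.1 and 66.3.

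Of the 11 receptor genes, 9 lay within 4-fold between the lines, or 81.8%, not far from the 70.5% of all genes compared. TGFBR2, the type II receptor for TGF-beta, had 6163 counts in SKHEP1 against 5892 in HepG2, a 1.15-fold difference (1.11 to 1.19). At 109.5 and 92.3 TPM it was the most abundant of the 54 genes in SKHEP1, and it made up 82.6% and 83.6% of the summed TPM of 4 type II receptor genes. Its type I partner TGFBR1 had 838 and 1237 counts, 1.34-fold higher in HepG2 (1.23 to 1.47). Transcripts of both members of the TGF-beta receptor pair were thus measured in each line.

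The co-receptor TGFBR3, or betaglycan, which presents TGFB2 and inhibins to the kinases, had 114 counts in SKHEP1 against 4051 in HepG2, a 32.4-fold difference (26.9 to 39.3). The co-receptor was thus higher in HepG2, and TGFB2 in SKHEP1. Among BMP and activin receptors, BMPR2, the type II receptor for BMPs, had 2477 and 849 counts, 3.20-fold higher in SKHEP1 (2.96 to 3.47). ACVR2B had 189 and 620 counts and ACVR2A 153 and 396, which was 2.99-fold and 2.36-fold higher in HepG2. ACVR2A overlaps exons of ORC4 on the opposite strand by up to 430 bases and is uncertain for that reason.

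The type I receptors BMPR1A, ACVR1B and ACVR1 had 735, 744 and 645 counts in SKHEP1 and 1392, 1141 and 420 in HepG2. The first pair of these was 1.72-fold and 1.40-fold higher in HepG2, and ACVR1 was 1.69-fold higher in SKHEP1. BMPR1B had 25 counts in SKHEP1 against 0 in HepG2 and was at least 9.15-fold higher, but by TPM or FPKM it fell short of the 4-fold limit, with a log2 ratio of -1.62 by FPKM. BAMBI, a pseudoreceptor without a kinase domain, had 324 and 314 counts, a difference within counting error (1.13-fold, 0.97 to 1.33).

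Of the SMADs that carry the signal, 5 of 6 lay within 4-fold, or 83.3%, beside 70.5% of all genes compared. SMAD2 had 1372 counts in SKHEP1 against 1583 in HepG2, SMAD5 2299 and 2594, and SMAD1 270 and 292. The differences of SMAD2, SMAD5 and SMAD1 were within counting error, at 1.05-fold (0.98 to 1.13), 1.03-fold (0.97 to 1.09) and 1.02-fold (0.86 to 1.20). The common partner SMAD4 had 1036 and 1524 counts, 1.34-fold higher in HepG2 (1.24 to 1.45).

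SMAD3 had 2950 counts in SKHEP1 against 1119 in HepG2 and was 2.89-fold higher in SKHEP1 (2.70 to 3.10). SMAD3 thus made up 44.2% of the summed TPM of SMAD2 and SMAD3 in SKHEP1 and 20.6% in HepG2. An annotated antisense transcript overlaps its exons by up to 182 bases and had 0 and 29 counts. SMAD9, a further transducer of BMP signals, had 4 counts in SKHEP1 against 326 in HepG2, a 74.2-fold difference (28.7 to 274). It made up 7.68% of the summed TPM of the BMP-branch SMADs in HepG2 and 0.089% in SKHEP1, with sums of 66.3 and 67.1 TPM.

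**Figure D3:**
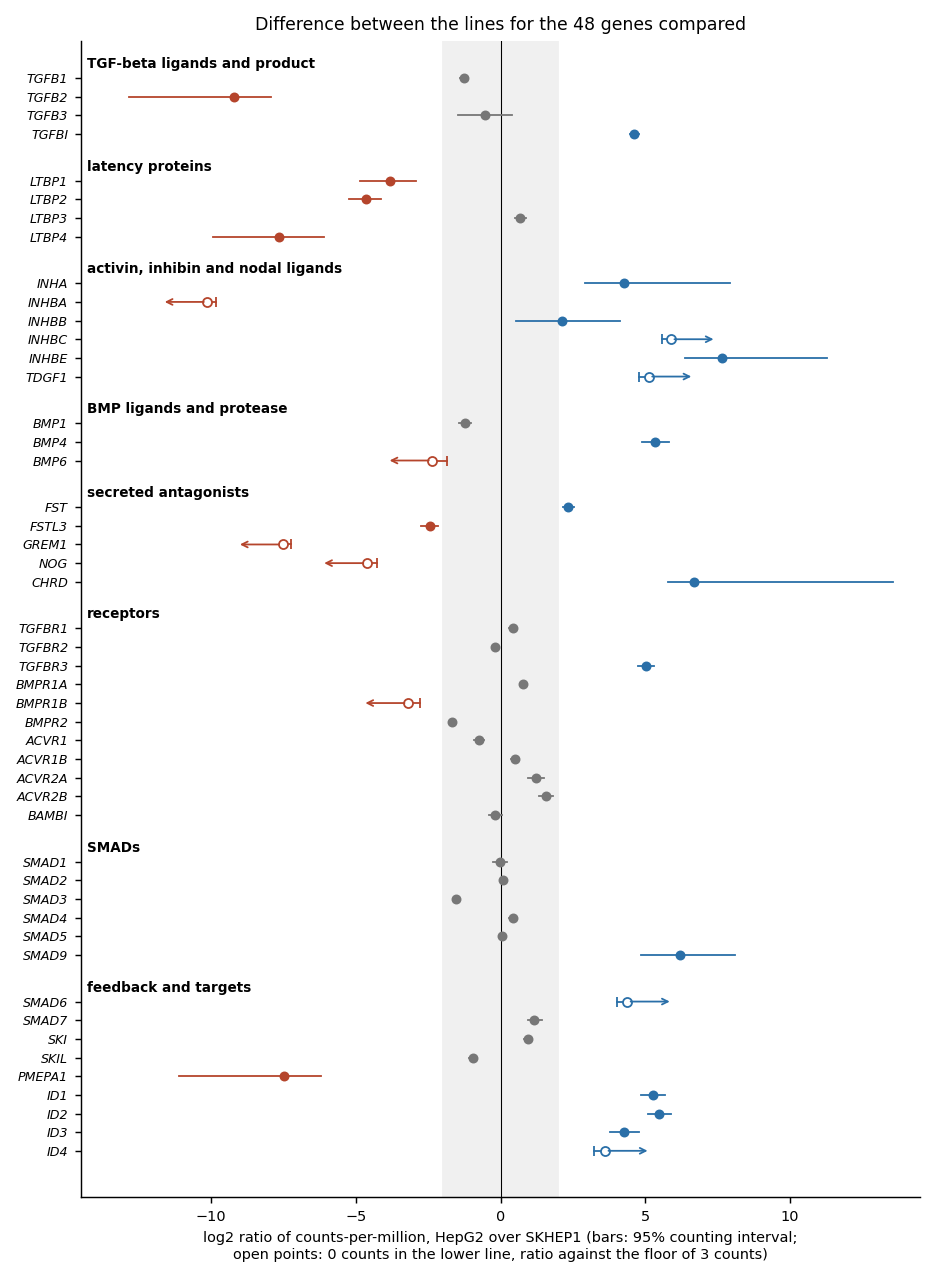
Log2 ratio of CPM, HepG2 over SKHEP1, for the 48 genes compared, with 95% counting intervals as bars and the range within 4-fold shaded. Filled points use the counts, with 1 or 2 counts raised to the floor of 3 while their bars use the raw counts. Open points with arrows are ratios against the floor where the lower line had 0 counts, and their bars reach to the lower end of the interval. Most receptors and SMADs lie near 0, and ID1, ID2, ID3 and ID4 all lie to the right of the shaded range.

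Target and feedback genes also divided, with the ID genes higher in HepG2. The ID proteins are helix-loop-helix factors without a DNA-binding region that block their partners, and their genes are classical targets of BMP signals. ID1 had 54 counts in SKHEP1 against 2264 in HepG2, a 38.2-fold difference (29.2 to 51.0). ID2 had 52 and 2539 counts, a 44.5-fold difference (33.8 to 59.7), and ID3 37 and 779, a 19.2-fold difference (13.8 to 27.4). ID4 had 0 and 40 counts, at least 12.1-fold higher in HepG2. All 4 genes were higher in HepG2, and their summed TPM was 11.4 in SKHEP1 and 424.6 in HepG2. In HepG2, ID1 and ID2 stood at percentiles 94.2 and 92.7 of the TPM of genes with at least 10 counts, against 26.9 and 20.3 in SKHEP1. Of the inhibitory SMADs, SMAD6 passed the limit and SMAD7 did not. SMAD6, which acts mainly on the BMP branch, had 0 counts in SKHEP1 against 68 in HepG2, at least 20.6-fold higher. SMAD7, which acts on both branches, had 201 and 497 counts, a 2.25-fold higher level in HepG2 (1.91 to 2.67) that lies within the limit.

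PMEPA1, a TGF-beta-induced membrane protein that sequesters SMAD2 and SMAD3, was higher in SKHEP1. It had 484 counts in SKHEP1 against 2 in HepG2, a ratio of 266 (73.2 to 2200.2). The corepressors SKI and SKIL lay within 4-fold and went opposite ways. SKI had 694 and 1456 counts, 1.91-fold higher in HepG2 (1.74 to 2.09), and SKIL 1379 and 774, 1.96-fold higher in SKHEP1 (1.79 to 2.14).

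The promoters of 6 genes that differed between the lines are shown, as ID1, ID2, ID3 and SMAD6 were higher in HepG2 together while INHBA and TGFB2 were among the widest differences toward SKHEP1. Each sequence is the 250 bases before the start of the gene in RefSeq, build GRCh38.p14, written from 5′ to 3′ on the strand of the gene. Capitals mark matches, on either strand, to any of 4 motifs. These are GTCTG, the short SMAD-binding element, GTCTAGAC, the palindromic form bound by SMAD3 and SMAD4, GGCGCC, a GC-rich element bound by SMADs of the BMP branch, and TATAAA, the letters of the TATA box wherever they lie. No motif lies within another, and the pair of TATAAA matches in the ID1 window overlap on opposite strands.
ID1: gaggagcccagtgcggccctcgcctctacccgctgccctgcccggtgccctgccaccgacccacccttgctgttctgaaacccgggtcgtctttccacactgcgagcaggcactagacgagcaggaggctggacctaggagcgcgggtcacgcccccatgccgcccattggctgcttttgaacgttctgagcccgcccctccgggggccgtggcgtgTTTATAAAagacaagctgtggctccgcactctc
ID2: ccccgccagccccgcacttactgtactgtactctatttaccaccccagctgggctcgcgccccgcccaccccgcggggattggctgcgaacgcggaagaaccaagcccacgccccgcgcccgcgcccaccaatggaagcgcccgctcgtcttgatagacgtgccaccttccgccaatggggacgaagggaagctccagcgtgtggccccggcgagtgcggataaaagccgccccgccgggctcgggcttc
ID3: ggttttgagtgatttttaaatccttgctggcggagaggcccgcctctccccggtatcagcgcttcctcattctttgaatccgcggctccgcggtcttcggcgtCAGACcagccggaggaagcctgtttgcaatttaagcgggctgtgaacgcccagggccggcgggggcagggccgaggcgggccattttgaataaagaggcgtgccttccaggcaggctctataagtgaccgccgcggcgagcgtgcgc
SMAD6: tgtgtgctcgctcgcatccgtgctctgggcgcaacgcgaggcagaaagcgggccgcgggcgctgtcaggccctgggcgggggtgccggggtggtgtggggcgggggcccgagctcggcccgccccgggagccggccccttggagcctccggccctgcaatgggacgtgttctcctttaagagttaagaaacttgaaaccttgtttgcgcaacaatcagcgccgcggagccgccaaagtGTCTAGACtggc
INHBA: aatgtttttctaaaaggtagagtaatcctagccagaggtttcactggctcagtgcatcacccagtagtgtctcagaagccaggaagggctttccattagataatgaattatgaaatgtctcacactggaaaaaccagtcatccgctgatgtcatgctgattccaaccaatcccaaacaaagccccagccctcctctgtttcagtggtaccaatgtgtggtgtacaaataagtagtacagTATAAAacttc
TGFB2: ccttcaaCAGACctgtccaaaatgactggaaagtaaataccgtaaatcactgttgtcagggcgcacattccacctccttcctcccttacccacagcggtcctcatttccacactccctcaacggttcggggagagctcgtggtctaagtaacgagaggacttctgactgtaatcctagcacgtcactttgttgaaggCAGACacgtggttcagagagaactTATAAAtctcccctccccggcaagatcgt
In the order shown, the windows are chr20:31605039-31605288 (plus strand), chr2:8681806-8682055 (plus strand), chr1:23559502-23559751 (minus strand), chr15:66701986-66702235 (plus strand), chr7:41703091-41703340 (minus strand) and chr1:218345086-218345335 (plus strand). The SMAD6 window holds GTCTAGAC beginning 12 bases before the start. This motif is in 0.18% of all 35116 windows of this length, and in 1 of the 80 windows of the 45 genes described here that have an entry in the table. The TGFB2 window holds GTCTG in 2 places and the ID3 window in 1, a motif found in 38.0% of all windows and in 40.0% of the 80. TATAAA is in the ID1, INHBA and TGFB2 windows and in 10.7% of all windows. It begins 33 and 31 bases before the start in ID1, 29 in TGFB2 and only 11 in INHBA. GGCGCC is in none of the 6 windows, in 16.4% of all windows and in 26.3% of the 80, whose median GC content is 63.4% against 58.0%. The GC content of the windows shown was 66.0% for ID1, 69.2% for ID2, 62.0% for ID3 and 68.0% for SMAD6, against 42.8% for INHBA and 50.4% for TGFB2. These matches describe the letters only, and binding was not measured.

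The rest of the pathway was described with 7 further lists of genes, which share no gene with the 54. These lists too were chosen with earlier results of these data known. Of 6 compared secreted antagonists outside the 54, 4 passed 4-fold toward SKHEP1 and none toward HepG2, beside 16.5% and 13.0% of all genes, with 2 within it. CHRDL1, a chordin-like inhibitor of BMP4, had 6175 counts in SKHEP1 against 0 in HepG2 and was at least 2260-fold higher. FSTL1 had 2555 and 4 counts, a 701-fold difference (273.6 to 2575.8). BMPER, which binds BMPs and can block or aid them, had 1074 and 1, a ratio of 1179 (211 to 46617), and NBL1 500 and 76, a 7.22-fold difference. Their median log2 ratio was -5.74, with 6 of the 12 listed genes under 10 counts in both libraries.

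Of 9 further receptors and co-receptors, 3 were compared, with 2 higher in SKHEP1 and 1 within 4-fold. Among all genes, 16.5% passed 4-fold toward SKHEP1 and 13.0% toward HepG2. The median log2 ratio of the list was -5.01, and -0.13 over the genes with at least 1 count. RGMB, a co-receptor for BMPs, had 5305 counts in SKHEP1 against 181 in HepG2, a 32.2-fold difference (27.7 to 37.5). ENG, or endoglin, had 1926 and 18 counts and was 117-fold higher in SKHEP1. ACVRL1, the endothelial type I receptor that works with endoglin, had 6 and 0 counts, under the minimum. NEO1 was 1.86-fold higher in HepG2.

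Of 17 other ligands, 6 were compared, with 2 higher in SKHEP1 and 1 higher in HepG2, beside 16.5% and 13.0% of all genes. The other 3 were not past 4-fold, and the median log2 ratio was 0.01. GDF11 had 446 counts in SKHEP1 against 60 in HepG2, 8.16-fold higher in SKHEP1, and AMH 18 and 0. GDF7 had 10 and 232 counts, 21.1-fold higher in HepG2, and GDF15, a stress-induced ligand, 455 and 1663, 3.33-fold higher. AMH was named after its values were seen.

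A further list held anchors and activators of latent TGF-beta, and with them the inhibitor EMILIN1. Of its 10 compared genes, 5 passed 4-fold toward SKHEP1 and 1, EMILIN1, toward HepG2, beside 16.5% and 13.0% of all genes. The other 4 lay within it, and the median log2 ratio of the list was -3.04. The fibrillin genes FBN2 and FBN1 had 5575 and 2462 counts in SKHEP1 against 1 and 127 in HepG2, so that FBN2 had a ratio of 6121 (1098 to 241803) and FBN1 one of 21.3 (17.8 to 25.6). ITGB8, whose integrin frees TGF-beta from its latent form, had 969 and 1 counts, a ratio of 1064 (190.5 to 42064). EMILIN1, an inhibitor of pro-TGF-beta processing, had 3 and 422 counts, a 128-fold difference toward HepG2 (43.5 to 623.8). THBS1 and ITGB6, named after their values were seen, were the other genes higher in SKHEP1.

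Of 20 compared SMAD cofactors and turnover factors, 19 lay within 4-fold, beside 70.5% of all genes. Their median log2 ratio was -0.09, which turned to 0.013 with TPM values. The exception was SMURF2, a ubiquitin ligase for SMADs and their receptors, with 10277 counts in SKHEP1 against 834 in HepG2, a 13.5-fold difference (12.6 to 14.5). The related SMURF1 was 2.76-fold higher in SKHEP1, FKBP1A, which holds type I receptors inactive, was 2.54-fold higher in SKHEP1, TGIF2 was 3.38-fold higher in HepG2, and TGIF1 1.17-fold higher in HepG2.

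Of 23 compared TGF-beta targets, 13 passed 4-fold toward SKHEP1 and 3 toward HepG2, beside 16.5% and 13.0% of all genes, with 7 within it and a median log2 ratio of -3.81. COL4A2 had 3996 counts in SKHEP1 against 2 in HepG2, COL4A1 2005 and 0, COL1A1 958 and 7, and SNAI2, a factor of epithelial to mesenchymal transition, 1275 and 3. The 3 higher in HepG2 were IL11, SNAI1 and CDKN2B, with 105, 43 and 46 counts there against 9, 5 and 0, and were named after their values were seen.

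Of 9 compared BMP targets, 3 were higher in each line, beside the same 16.5% and 13.0%, and 3 lay within 4-fold, with a median log2 ratio of 1.56 but a mean of -0.54. HAMP, the hepcidin gene, had 388 counts in HepG2 against 0 in SKHEP1, at least 118-fold higher in HepG2, and MSX1 had 153 and 21. GATA3 and RUNX2 had 1043 and 750 counts in SKHEP1 and 1 and 0 in HepG2. MSX2, at 20 and 0 counts, and HEY1, at 2 and 33, were named after their values were seen. Of the 24 listed TGF-beta targets, 4 (COL1A1, COL1A2, TAGLN and ACTA2) are also in the mesenchymal marker list, and none of the 10 BMP targets is in a marker list. Of these 4, COL1A1 was higher in SKHEP1, TAGLN (406 counts in SKHEP1, 1437 in HepG2) and ACTA2 (599 and 872) lay within 4-fold with more in HepG2, and COL1A2 (7 and 0) was under the minimum. The summed mesenchymal markers stood at 7620 CPM in SKHEP1, 94% of it from VIM, and at 113 in HepG2. The summed hepatocyte markers stood at 90.0 CPM in SKHEP1 and 65670 in HepG2. In SKHEP1, SERPINA1 made up 99.9% of that sum, and 7 of the 9 markers were at 0. The part of these differences in the pathway lists was not tested.

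**Figure D4:**
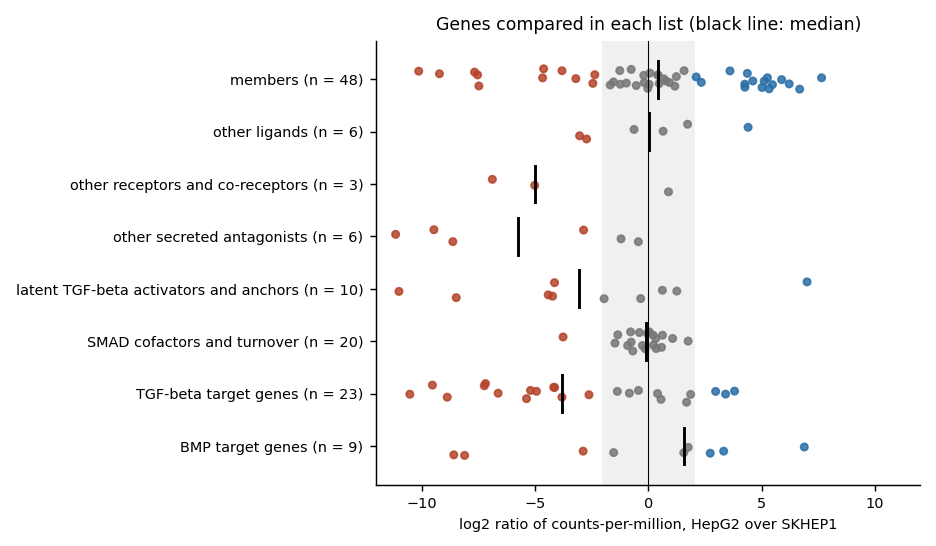
Log2 ratio of CPM, HepG2 over SKHEP1, of each compared gene in the 54-gene set and in 7 further lists, with the median as a black line and the range within 4-fold shaded. The medians are -5.74 for other secreted antagonists, -3.81 for TGF-beta targets, -0.09 for SMAD cofactors and 1.56 for BMP targets.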

How the data were processed

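RNA-seq gene tables of 2 cell lines, with 1 library each, were used, and groups came from the cell line labels. The submitters' processing notes name hg19 as the build and list STAR, RSEM, cutadapt and DESeq2. Their versions, the annotation and the strand setting were not given in the sources used. Per the file headers, the deposited tables hold RSEM expected counts, that is, estimated counts per gene, and TPM and FPKM values scaled by the authors to gene length and library. The deposited length columns are other values, in bases, per the file headers.

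Rounded expected counts were divided by TMM-adjusted library sizes (edgeR 4.0.16, R 4.3.3). The comparison took genes reaching 10 expected counts in either library, and called a gene higher from a ratio of 4 upward. A count under 3 was raised to a floor of 3 per library for the log2 ratio. With 0 counts in the lower line the ratio is taken against the floor and given as at least a fold, although its counting interval reaches lower. With 1 to 3 counts the raw ratio is given with its interval. Intervals are exact conditional Clopper-Pearson intervals at 95%. Totals were 19940557 and 22477757 expected counts. The comparison was also run on simulated counts that held counting error only. Those counts hold no spread between libraries, so this run cannot show how well the differences between the lines would repeat. The text names every gene of the set, and from each further list up to 4 genes with the largest ratio and at least 100 counts, plus ENG, ACVRL1, HAMP, SMURF1, SMURF2 and TGIF1, and 1 further gene that is not reported here. The members and lists were chosen with earlier results of these data known. Chromosomes and exon overlaps came from GENCODE release 29 by stable identifier, and promoter sequences from RefSeq. The alternatives were other scalings (total counts, DESeq2 1.42.0 size factors), deposited TPM or FPKM values, thinning, a prior count of 2, unrounded counts, other count minimums and fold limits, and the mean. Python 3.11.15 with pandas 2.3.3 and scipy 1.17.1 was used.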

Additional observations from a re-analysis of the deposited data

How the results depend on the processing

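No paired analysis was possible because each line has a single library. Of the 27 genes past 4-fold, 25 kept their call and direction under 7 alternatives of scaling, unit, depth, prior count and rounding. BMPR1B fell within 4-fold with TPM or FPKM values, and INHBB with a prior count of 2. The 21 genes within 4-fold stayed there. Of 336 alternative values for single genes, 317 stayed inside the counting interval of the ratio, computed with counts under 3 raised to 3, and 19 moved outside it, all 19 with TPM or FPKM values. With TPM values GREM1 was at -6.90 against -7.53 on the log2 scale, SMAD6 at 3.77 against 4.37 and CHRD at 7.51 against 6.68, all inside that interval. A prior count of 2 gave wider ratios for the 9 called genes at 0 in the lower line, and these are no bounds. No gene past 4-fold changed direction. The number of genes of the set called higher in SKHEP1 ranged from 9 to 15 and in HepG2 from 14 to 19 over all alternatives. These include fold limits of 2 and 8 and other count minimums, where the genes compared are not the same 48. Shares of all genes are given only for the main setting, at 16.5% toward SKHEP1 and 13.0% toward HepG2, so these ranges describe the set only. The median log2 ratio of the set was 0.26 with TPM, 0.27 with FPKM and 0.056 with a minimum of 1 count, so it is near 0 and carries no direction. For the other ligands, with 6 genes, the median was -0.025 with total counts, -0.021 with a prior count of 2, -0.13 with a minimum of 1 count and 1.74 with a minimum of 50 counts, where 1 gene was higher in SKHEP1. The median of the SMAD cofactors turned to 0.013 with TPM and 0.023 with FPKM. The median of the other receptors and co-receptors was -0.13 with a minimum of 1 count. That of the other secreted antagonists was -4.34 with TPM, -4.32 with FPKM, -8.62 with a minimum of 50 counts and -2.85 with 1 count. That of the anchors and activators was -2.85 with FPKM and -1.95 with a minimum of 50 counts, and that of the BMP targets 0.72 with a minimum of 1 count. With a minimum of 50 counts 1 TGF-beta target was higher in HepG2. With other count minimums the set of genes compared changes; otherwise the cause was not tested. The widest shift of the median of all genes was -0.04, with TPM values. Genes at 0 in one line are limited by depth, since 3 counts correspond to 0.148 CPM in SKHEP1 and 0.135 in HepG2.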

Other observations

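The tables also give a length per gene that RSEM weights by the isoforms it estimated, which differs between the lines where their isoform mix was estimated to differ. Of the 54 genes, 24 had at least 100 counts in both libraries. Among these the length was 1919 bases in SKHEP1 and 2284 in HepG2 for LTBP3, 4929 and 5597 for SMAD3, 5581 and 6255 for TGFBR1, and 3252 and 2856 for BMP1. For TGFBR2 it was 4614 and 4613, and for BAMBI 1877 in both. For SMAD3 the log2 ratio from TPM was -1.77 against -1.53 from counts. Isoform values were not analysed here.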
